A study of Homo sapiens with 12 samples.

Results

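Respiratory complex I is described here through its nuclear genes, found as the genes whose symbol starts with NDUF. Each gene was represented by 1 probe set, taken as the brightest on average among those with a single gene symbol. The rule found 41 of the 18417 genes in the table, 34 of them subunits and 7 of them assembly factors with a symbol starting with NDUFAF. A noncoding gene with an NDUF symbol was counted (1) and not described. NDUFC2, NDUFS5 and NDUFAF8 had no probe set with a single symbol and were not analysed here, nor were the 7 subunits encoded in mitochondrial DNA.

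The RNA came from Calu-3, an established line of human airway epithelial cells, and was measured on 12 whole-transcript arrays. 3 arrays held cells transfected with an siRNA against SIN3A, 3 held cells given a mimic of the microRNA miR-138, and 6 held cells transfected with NC1, a scrambled control. All cells received an oligonucleotide in the lipid reagent Lipofectamine RNAiMAX. Calu-3 is the name in the labels, although the extraction note mentions primary cultures, and neither dose nor harvest time is given in the sources used here. The labels call the arrays biological replicates without saying whether they came from separate cultures, so the p-values reflect only how these arrays vary, and that variation may be technical.

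Complex I is the entry point of electrons from NADH into the respiratory chain. Its N module oxidises NADH, its Q module passes the electrons through iron-sulfur clusters to ubiquinone, and its membrane arm pumps protons. Core subunits carry out these steps, accessory subunits surround and stabilise them, and assembly factors help to build the complex without staying in it. Airway epithelium spends much ATP on ion transport and ciliary beating. SIN3A is a scaffold protein that brings histone deacetylases to genes and so represses them, and in Drosophila cells loss of Sin3 is known to raise transcripts of nuclear genes for mitochondrial proteins.

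Sequences upstream of 4 members whose levels rose with SIN3A siRNA are shown because NRF1, ETS factors such as GABP, and YY1 are the factors best known for nuclear genes of the respiratory chain. The 4 were picked by hand and include every one of the 11 risers with the NRF1 letters (1) or the ETS letters (2). They therefore do not show how often risers hold such letters, which is counted below. The windows are the 250 bases before the RefSeq transcript start, on the gene's strand, from build GRCh38.p14. Capitals mark the NRF1 letters (GCGC, any base, then TGCGC) or the ETS letters CCGGAAG, searched on both strands. The NDUFA2 window lies at chr5:140647631-140647880 (minus strand) and holds neither, the NDUFA12 window at chr12:95003698-95003947 (minus strand) holds the NRF1 letters, and the NDUFA13 window at chr19:19515975-19516224 (plus strand) and the NDUFS3 window at chr11:47578824-47579073 (plus strand) hold the ETS letters.
NDUFA2: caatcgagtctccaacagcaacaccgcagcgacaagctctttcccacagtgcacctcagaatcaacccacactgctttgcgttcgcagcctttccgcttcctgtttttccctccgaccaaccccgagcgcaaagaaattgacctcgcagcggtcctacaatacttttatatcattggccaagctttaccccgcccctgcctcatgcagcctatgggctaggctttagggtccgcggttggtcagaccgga
NDUFA12: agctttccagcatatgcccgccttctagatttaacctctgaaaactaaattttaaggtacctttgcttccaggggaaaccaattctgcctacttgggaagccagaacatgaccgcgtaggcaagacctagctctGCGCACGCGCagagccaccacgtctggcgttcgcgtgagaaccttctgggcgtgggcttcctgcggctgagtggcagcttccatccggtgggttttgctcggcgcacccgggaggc
NDUFA13: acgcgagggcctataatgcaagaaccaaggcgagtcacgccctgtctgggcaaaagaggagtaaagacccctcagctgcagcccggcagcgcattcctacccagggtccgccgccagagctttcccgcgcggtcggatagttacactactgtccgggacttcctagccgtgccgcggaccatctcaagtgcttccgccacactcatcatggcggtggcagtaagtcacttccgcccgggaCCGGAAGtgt
NDUFS3: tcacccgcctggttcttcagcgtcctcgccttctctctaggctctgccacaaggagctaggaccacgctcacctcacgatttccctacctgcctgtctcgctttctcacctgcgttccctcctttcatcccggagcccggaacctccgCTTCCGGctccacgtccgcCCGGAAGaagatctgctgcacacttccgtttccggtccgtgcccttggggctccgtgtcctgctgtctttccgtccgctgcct

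The YY1 letters AAGATGGCG lay just after the transcript start, 11 to 26 bases into the transcript and on its own strand, in each of the 6 members that held them. They are shown for NDUFB8 and NDUFS7, which rose with SIN3A siRNA, and for NDUFS4, NDUFA6, NDUFA9 and NDUFA7, which did not pass the test, so that the windows of both kinds can be compared. The sites lie at chr10:100529835-100529864 (NDUFB8, minus strand), chr19:1383914-1383943 (NDUFS7, plus strand), chr5:53560650-53560679 (NDUFS4, plus strand), chr22:42090728-42090757 (NDUFA6, minus strand), chr12:4649114-4649143 (NDUFA9, plus strand) and chr19:8321342-8321371 (NDUFA7, minus strand), from RefSeq on GRCh38.p14.
NDUFB8: gaagaaggtgAAGATGGCGgtggccagggc
NDUFS7: ggccgaggccAAGATGGCGgtgctgtcagg
NDUFS4: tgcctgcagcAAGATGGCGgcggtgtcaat
NDUFA6: atgctttggcAAGATGGCGgggagcggcgt
NDUFA9: attgtgggaaAAGATGGCGgctgccgcaca
NDUFA7: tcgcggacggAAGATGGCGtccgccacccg

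Of the 41 members, 38 had at least 1 window of 300 bases (250 before and 50 after the start). The NRF1 letters were in windows of 7 of these 38 members (18.4%) and of 6.98% of the 27305 genes with a window, and the YY1 letters in 6 members (15.8%) and in 2.14% of all genes. The ETS letters were in 6 members (15.8%) and in 12.2% of all genes. Over all windows, 332 of 628 matches to the YY1 letters (52.9%) lay after the start on the transcript's strand, the placement seen in the 6 members. Among the 11 members that rose with SIN3A siRNA, 1 held the NRF1, 2 the ETS and 2 the YY1 letters, and among the 27 other members with a window 6, 4 and 4 did. These matches describe letters in a window and say nothing of binding.

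The mature arm miR-138-5p is shown with its seed, bases 2 to 8, in capitals, since the seed is the part of a microRNA that pairs with its targets. It is RefSeq's sequence (chr3:44114234-44114256, plus strand, GRCh38.p14), and the labels do not say which arm the mimic copied.
hsa-miR-138-5p: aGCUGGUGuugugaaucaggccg

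The deposited values are log2 levels, so a difference of 1 is a doubling. Array medians over the 18417 genes lay between 5.25 and 5.33, correlations between arrays across genes between 0.967 and 0.995, and the median standard error (SE) of a difference from NC1 was 0.10. Precision is limited by the number of arrays, which carry no counts. The NC1 arrays stood apart as replicates 1 to 3 and replicates 4 to 6, a division that the labels do not explain, and results are given against both parts. All 8 airway epithelial markers were measured, with a list mean of 7.88 to 8.02 in SIN3A siRNA, 7.97 to 8.05 in miR-138 mimic and 7.91 to 8.18 in NC1 arrays. Against all 6 NC1 arrays, CFTR was the epithelial marker called with SIN3A siRNA (log2 -1.34, limma adjusted p = 0.000203), and 0 were called with the mimic (1 at an unadjusted p under 0.05). Against NC1 4 to 6, the epithelial genes CFTR (-0.57, adjusted p = 0.0188) with the mimic and ELF3 (-0.38, adjusted p = 0.014) with the siRNA were also called. None of the 24 measured fibroblast, leukocyte, endothelial, basal and ciliated markers was called by limma against all 6 NC1 arrays, where 2 with SIN3A siRNA and 1 with the mimic had an unadjusted p under 0.05. The leukocyte marker CD68 was higher than in NC1 4 to 6 with the mimic (0.48, adjusted p = 0.0164) and with SIN3A siRNA (0.55, adjusted p = 0.00266), and it was lower in NC1 4 to 6 than in NC1 1 to 3 (-0.46, adjusted p = 0.0113). Against NC1 1 to 3, the leukocyte marker LYZ was lower with the mimic (-0.39, adjusted p = 0.0358). The part of these cell type markers in the results was not tested, and the 5 list means lay between 3.93 and 5.63 in every array.

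SIN3A, the target of the siRNA, had levels of 6.17, 5.88 and 6.03 in the siRNA arrays and of 5.93, 6.05 and 6.25 in the mimic arrays, against a lowest, median and highest NC1 level of 6.36, 6.95 and 7.34. Both treated groups lay below all NC1 arrays. The log2 difference from NC1 was -0.88 (SE 0.17, limma adjusted p = 0.0111) with the siRNA and -0.83 (SE 0.17, adjusted p = 0.0304) with the mimic, and the mimic and siRNA arrays differed by 0.05 (SE 0.20, adjusted p = 0.953). SIN3A itself was higher in NC1 4 to 6 than in NC1 1 to 3 (0.58, SE 0.12, adjusted p = 0.00574). With the siRNA it fell by 0.59 against NC1 1 to 3 (adjusted p = 0.0104) and by 1.18 against NC1 4 to 6 (adjusted p = 1.24e-05), and with the mimic by 0.54 (adjusted p = 0.0113) and by 1.13 (adjusted p = 4.27e-05). Against all NC1 arrays, the siRNA call was lost without siRNA replicate 2 or 3 (highest adjusted p = 0.0725). The mimic call was lost without mimic replicate 1, 2 or 3, siRNA replicate 1, 2 or 3, or NC1 replicate 6 (highest adjusted p = 0.202).

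Complex I genes were higher with SIN3A siRNA than in NC1 cells. Of the 41 members, 11 rose at a limma adjusted p under 0.05 (26.8%), against 2.35% of all genes, and 0 fell, against 1.66% of all genes. The 11 were 10 of the 34 subunits and 1 of the 7 assembly factors, and 28 members had an unadjusted p under 0.05. The difference was positive for 40 of 41 members, the exception being NDUFA7 (log2 -0.07). The subunits had a median difference of 0.28 and the NDUFAF genes of 0.25, against -0.01 over all genes. In 21 members (51.2%) every siRNA array exceeded every NC1 array, as was so in 5.49% of all genes, and the siRNA arrays lay below all NC1 arrays in 0 members, against 3.53% of all genes. More cells of a kind and more RNA per cell cannot be told apart in such bulk samples.

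**Figure D1:**
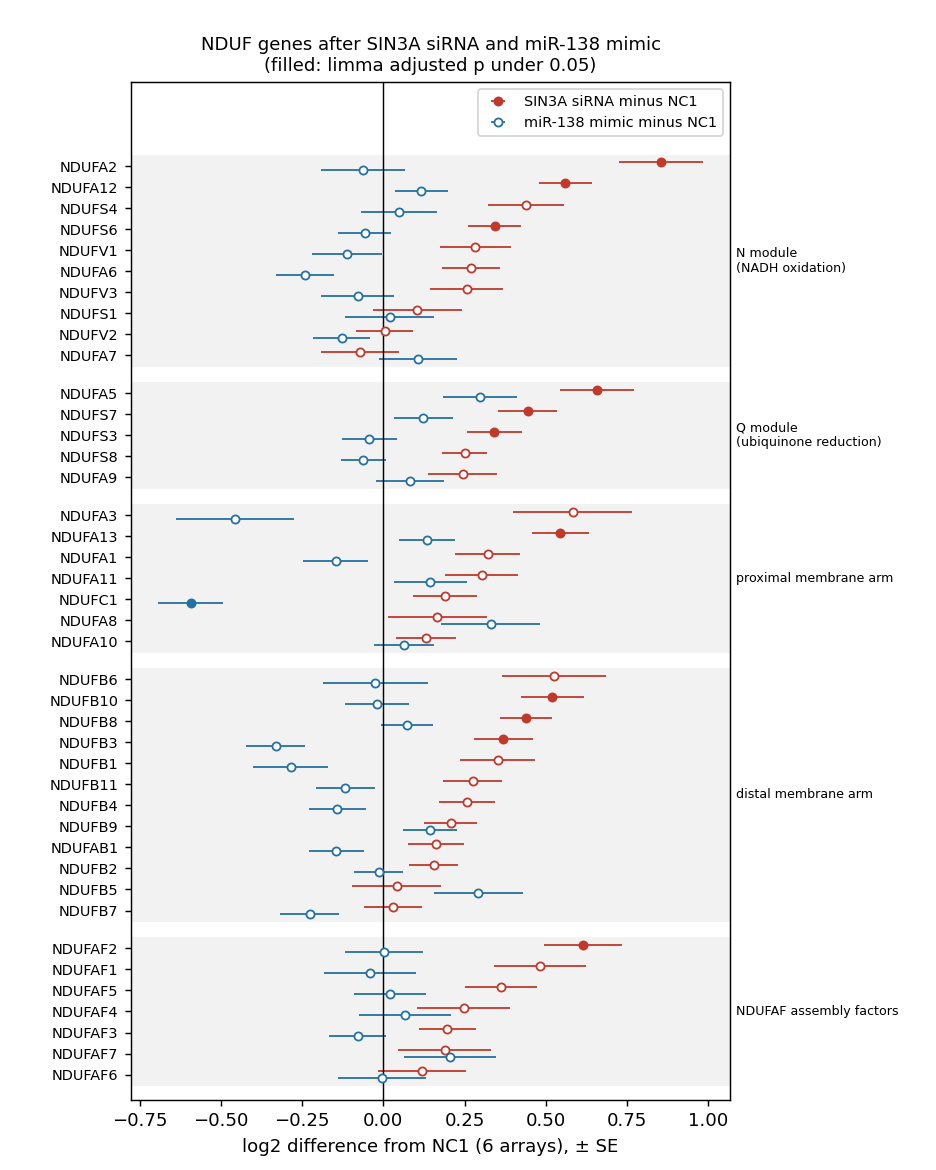
Log2 difference from the 6 NC1 arrays (horizontal axis, point ± SE) for each of the 41 NDUF genes (rows, by module), with SIN3A siRNA in red and miR-138 mimic in blue. Filled points passed a limma adjusted p under 0.05. The siRNA points lie to the right of 0 for 40 genes, with 11 filled, while the mimic points scatter about 0 with 1 filled, NDUFC1 at -0.59.

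In the N module, 3 of 10 members rose with SIN3A siRNA, all of them accessory subunits, with a module median of 0.28. NDUFA2, an accessory subunit with a thioredoxin-like fold, had 8.76, 8.72 and 8.90 in siRNA arrays, against 8.27, 8.18 and 8.08 in NC1 1 to 3 and 7.72, 7.67 and 7.71 in NC1 4 to 6. It rose by 0.85 (SE 0.13, adjusted p = 0.00313, 1.81-fold), the largest difference among the members, and its siRNA arrays cleared every control although the control itself split into a higher and a lower part. NDUFA12, the accessory subunit that takes over the place NDUFAF2 holds during assembly, had 8.80, 8.82 and 8.87 in siRNA arrays, against 8.09, 8.28 and 8.40 as lowest, median and highest NC1 level. NDUFA12 rose by 0.56 (SE 0.08, adjusted p = 0.0025, 1.47-fold) with no such split in NC1. NDUFS6, a zinc-binding accessory subunit, had 9.49 to 9.64 in siRNA arrays and 9.13 to 9.34 in NC1 and rose by 0.34 (SE 0.08, adjusted p = 0.0281).

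The core subunits of the N module, which hold its flavin and most of its iron-sulfur clusters, did not pass the test. NDUFV1, which binds NADH and the flavin, had 7.48, 7.39 and 7.68 in siRNA arrays, against 7.01, 7.24 and 7.41 as lowest, median and highest NC1 level, and the groups overlapped (log2 0.28, SE 0.11, adjusted p = 0.19). NDUFV2, which carries an iron-sulfur cluster, had 7.93, 7.98 and 7.98 in siRNA arrays and 7.79, 7.93 and 8.15 in NC1 (log2 0.00, SE 0.09, adjusted p = 0.991). The number of the NDUFV2 probe set is also out of place for the gene's chromosome, as described below. NDUFS1, which carries several clusters, had 7.08, 7.16 and 6.92 in siRNA arrays and 6.43, 6.96 and 7.24 in NC1 (log2 0.10, SE 0.14, adjusted p = 0.79). NC1 replicate 3 gave the lowest NDUFS1 level of the 12 arrays. The remaining accessory subunits of the module were NDUFS4 (0.44), NDUFA6 (0.27), NDUFV3 (0.26) and NDUFA7 (-0.07). NDUFS4, in which mutations cause Leigh syndrome, lay just outside the call at an adjusted p of 0.0502, with siRNA arrays at 8.14, 8.26 and 8.40 above an NC1 range of 7.56 to 8.03. NDUFA7 had 5.73, 5.51 and 5.72 in siRNA arrays, inside the NC1 range of 5.43 to 6.00 (median 5.69).

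In the Q module, 3 of 5 measured members rose and the module median was 0.34. NDUFA5, an accessory subunit on the matrix side, had 7.17, 7.03 and 7.34 in siRNA arrays, against 6.34, 6.51 and 6.69 as lowest, median and highest NC1 level, and rose by 0.66 (SE 0.11, adjusted p = 0.00667, 1.58-fold). NDUFS7, the core subunit that holds the last iron-sulfur cluster before ubiquinone, had 5.44, 5.38 and 5.58 in siRNA arrays and 4.92, 4.97 and 5.21 in NC1, and rose by 0.44 (SE 0.09, adjusted p = 0.0147). NDUFS3, a core subunit from which assembly starts, had 7.44, 7.51 and 7.56 in siRNA arrays and 7.0, 7.16 and 7.37 in NC1, and rose by 0.34 (SE 0.08, adjusted p = 0.0348). In all 3 genes the lowest siRNA array lay above the highest NC1 array, by the smallest margin in NDUFS3. NDUFS8, a core subunit with iron-sulfur clusters, had 6.88, 7.04 and 7.0 in siRNA arrays and 6.65, 6.74 and 6.76 in NC1 (log2 0.25, SE 0.07, adjusted p = 0.057). Its groups did not overlap either, and its NC1 spread was narrow (SD 0.04, n = 6). NDUFA9, an accessory subunit with a nucleotide-binding fold, had a difference of 0.24 (adjusted p = 0.259).

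In the part of the membrane arm next to the Q module, 1 of 7 measured members rose (median 0.30). NDUFA13, also known as GRIM-19 and as a regulator of cell death, had 7.10, 7.11 and 7.23 in siRNA arrays, against 6.46, 6.60 and 6.79 as lowest, median and highest NC1 level, and rose by 0.55 (SE 0.09, adjusted p = 0.00398, 1.46-fold). NDUFA3, a small membrane subunit, had a difference of 0.58 that did not pass the test (SE 0.18, adjusted p = 0.0979), with 10.13, 10.16 and 10.17 in siRNA arrays, 9.14, 9.16 and 9.37 in NC1 4 to 6 and 9.69, 9.93 and 10.13 in NC1 1 to 3. The siRNA arrays of NDUFA3 varied by 0.02 (SD, n = 3), and its NC1 arrays by 0.41 (SD, n = 6). NDUFA1 (0.32), NDUFA11 (0.30), NDUFC1 (0.19), NDUFA8 (0.17) and NDUFA10 (0.13) did not pass the test.

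In the far end of the membrane arm, 3 of 12 members rose (median 0.27). NDUFB8, whose protein is widely used as a gauge of assembled complex I, had 7.98, 8.15 and 8.21 in siRNA arrays, against 7.52, 7.69 and 7.77 as lowest, median and highest NC1 level, and rose by 0.44 (SE 0.08, adjusted p = 0.00802, 1.36-fold). NDUFB10, an accessory subunit held by disulfide bonds on the intermembrane side, had 7.49, 7.69 and 7.67 in siRNA arrays and 6.96, 7.04 and 7.41 in NC1, and rose by 0.52 (SE 0.10, adjusted p = 0.00964). NDUFB3, a single-span membrane subunit, had 8.43, 8.57 and 8.52 in siRNA arrays and 8.0, 8.10 and 8.36 in NC1, and rose by 0.37 (SE 0.09, adjusted p = 0.0367). NC1 replicate 1 came closest to the siRNA arrays in both NDUFB10 and NDUFB3. Of the others, NDUFB6 had the largest difference (0.53, SE 0.16, adjusted p = 0.0915), and NDUFB1 (0.35), NDUFB11 (0.28), NDUFB4 (0.26), NDUFB9 (0.21), NDUFAB1 (0.16), NDUFB2 (0.15), NDUFB5 (0.04) and NDUFB7 (0.03) did not pass either. NDUFAB1 is the mitochondrial acyl carrier protein, which also serves fatty acid synthesis outside the complex.

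Among the assembly factors, NDUFAF2 rose and 6 of 7 did not pass the test. NDUFAF2, which joins the nascent complex late, had 8.15, 8.16 and 8.31 in siRNA arrays, against 7.35, 7.50 and 7.92 as lowest, median and highest NC1 level, and rose by 0.61 (SE 0.12, adjusted p = 0.0122, 1.53-fold). The number of the NDUFAF2 probe set is out of place for the gene's chromosome, and a second probe set is described below. NDUFAF1, which works on the membrane arm with ECSIT and ACAD9, had a difference of 0.48 (adjusted p = 0.0758), and NDUFAF5, which hydroxylates NDUFS7, of 0.36 (adjusted p = 0.0919). NDUFAF4 (0.25) and NDUFAF3 (0.20), which act together early in assembly, NDUFAF7 (0.19), a methyltransferase, and NDUFAF6 (0.12) had adjusted p-values of 0.275 to 0.751. NDUFAF6 spread most within the siRNA group, with 3.91, 4.20 and 4.71. NDUFAF5 and NDUFAF6 were dim, with means of 4.55 and 4.18 over the 12 arrays, below every array median.

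**Figure D2:**
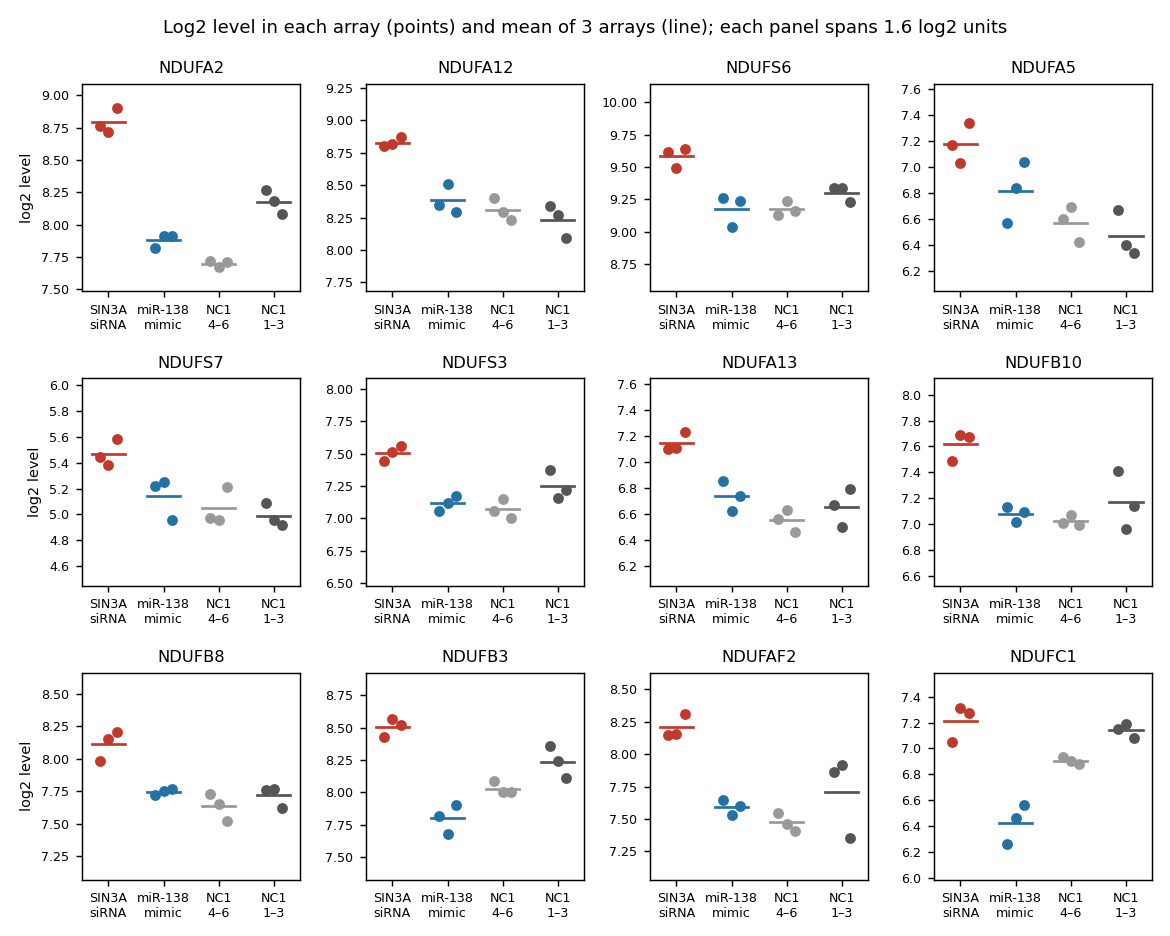
Log2 level in each array (points) and the mean of each 3 arrays (line) for 12 NDUF genes, with SIN3A siRNA, miR-138 mimic, NC1 4 to 6 and NC1 1 to 3 from left to right, and 1.6 log2 units on every vertical axis. In the first 11 genes the siRNA arrays stand above all NC1 arrays, and in NDUFC1 the mimic arrays, at 6.26 to 6.56, stand below all NC1 arrays.

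Several calls with SIN3A siRNA depended on single arrays. NDUFA2, NDUFA12 and NDUFA13 stayed called whichever of the 12 arrays was left out (highest adjusted p 0.0369). The count of 10 subunits became 6, 5 and 3 without siRNA replicate 1, 2 and 3, and that of 1 assembly factor became 0 without siRNA replicate 2 or 3 and 3 without NC1 replicate 1, while the median over the subunits stayed between 0.25 and 0.31. NDUFA5 was not called without siRNA replicate 3 (adjusted p = 0.0549), NDUFAF2, NDUFB10 and NDUFB8 without siRNA replicate 2 or 3, and NDUFS7 without siRNA replicate 1 or 3. NDUFB3, NDUFS3 and NDUFS6 were the least stable. All 3 were lost without siRNA replicate 1, 2 or 3 or NC1 replicate 4 or 6. NDUFB3 was also lost without NC1 replicate 5 or mimic replicate 1, and NDUFS3 without NC1 replicate 5 or mimic replicate 2 or 3.

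Taken array by array, the 34 subunits had a median deviation from their NC1 means of 0.23, 0.29 and 0.34 in the siRNA arrays and of 0.03, -0.04 and -0.01 in the mimic arrays. In the NC1 arrays themselves it was -0.04, -0.01 and -0.10 in replicates 4 to 6 and 0.10, 0.06 and -0.04 in replicates 1 to 3. For the subunits, every siRNA array thus lay above every other array, and the NC1 arrays reached 0.10 at most. Of the 34 subunits, 31, 33 and 32 lay above their NC1 mean in the siRNA arrays and 18, 14 and 15 in the mimic arrays, while 14, 15 and 9 did in NC1 4 to 6 and 31, 22 and 13 in NC1 1 to 3. NC1 replicate 1 therefore had as many subunits above the mean as siRNA replicate 1, at smaller deviations. The 7 NDUFAF genes separated less well, with medians of 0.18, 0.20 and 0.47 in the siRNA arrays, 0.00, -0.05 and -0.23 in NC1 4 to 6 and 0.23, 0.16 and -0.12 in NC1 1 to 3, so that NC1 replicate 1 lay above siRNA replicates 1 and 2.

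**Figure D3:**
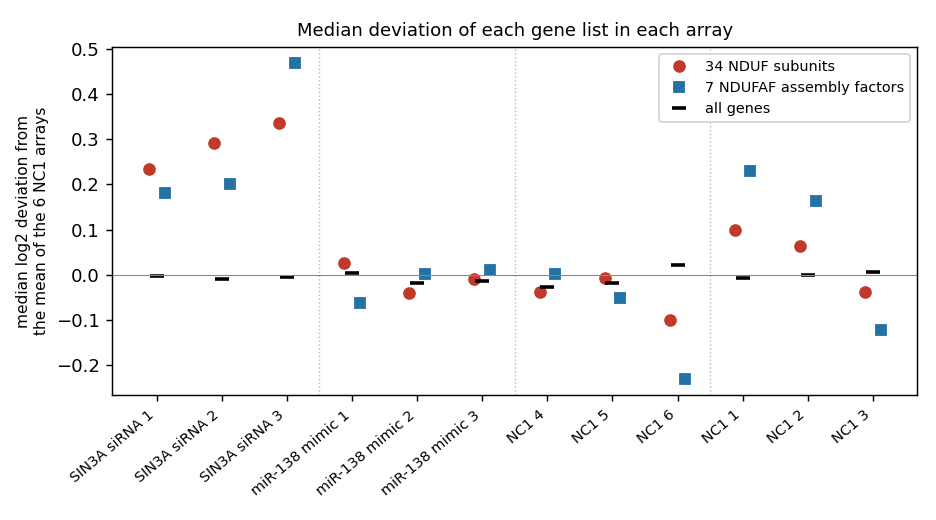
Median log2 deviation from the mean of the 6 NC1 arrays (vertical axis) in each of the 12 arrays (horizontal axis) for the 34 subunits (circles), the 7 NDUFAF genes (squares) and all 18417 genes (short bars). The subunits lie at 0.23 to 0.34 in the siRNA arrays and between -0.10 and 0.10 in the 9 others, while all genes stay close to 0.

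Measured against each part of the control, the siRNA difference kept its direction in most members. Against NC1 1 to 3, 8 subunits and 1 assembly factor rose (22.0% of members, against 3.66% of all genes) and 0 members fell (2.04% of all genes), with 25 members at an unadjusted p under 0.05. These 9 were 8 of the 11 genes above and NDUFB6, and NDUFB3, NDUFS3 and NDUFS6 missed the threshold (adjusted p 0.082 to 0.113). NDUFB6, a membrane subunit, had 7.32, 7.38 and 7.37 in siRNA arrays against 6.94, 6.81 and 6.21 in NC1 1 to 3 (log2 0.70, SE 0.16, adjusted p = 0.0157), and the last of these is far below the others. Against NC1 4 to 6, 15 subunits and 3 assembly factors rose (43.9% of members, against 5.16% of all genes) and 0 fell (6.28% of all genes), with 27 members at an unadjusted p under 0.05. These 18 held all 11 genes above together with NDUFA1, NDUFA3, NDUFB1, NDUFS4, NDUFS8, NDUFAF4 and NDUFAF5, the last of them dim (mean 4.36 in NC1 4 to 6). The median subunit difference was 0.25 with NC1 1 to 3 as the control and 0.31 with NC1 4 to 6. The 8 subunits called against NC1 1 to 3 became 5 and 4 without siRNA replicate 2 and 3, and the 1 assembly factor became 0 without any siRNA replicate or NC1 replicate 3 and 2 without NC1 replicate 1. The 3 assembly factors called against NC1 4 to 6 became 1 without siRNA replicate 3 and 5 without NC1 replicate 3.

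The NC1 parts themselves differed in 6 members. NC1 4 to 6 was higher than NC1 1 to 3 in 1 subunit (6.86% of all genes were higher) and lower in 4 subunits and 1 assembly factor (12.2% of members, against 3.18% of all genes). NDUFA8, a subunit of the intermembrane side, was the higher one, with 8.07, 8.07 and 7.90 in NC1 4 to 6 and 7.82, 7.49 and 7.26 in NC1 1 to 3 (log2 0.49, adjusted p = 0.0133). NDUFA3 (-0.69, adjusted p = 0.000468), NDUFA2 (-0.47, adjusted p = 0.00178), NDUFAF4 (-0.46, adjusted p = 0.0143), NDUFA1 (-0.31, adjusted p = 0.0292) and NDUFB1 (-0.34, adjusted p = 0.0415) were the lower ones. The median over the subunits was -0.07, so the parts differed in single genes and less in the group. NDUFA8 was not called without NC1 replicate 3, 4 or 5, while 2 subunits were higher without NC1 replicate 1, 2 or 6. The 4 lower subunits became 2 without NC1 replicate 2 or 5, and the 1 assembly factor became 2 without NC1 replicate 1 or 3.

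With the miR-138 mimic, NDUFC1 was the complex I gene that passed the test. Of the 41 members, 0 rose (0.641% of all genes did) and 1 fell (2.44%, against 0.402% of all genes) by limma, and 8 had an unadjusted p under 0.05. The median difference from NC1 was -0.03 over the subunits and 0.00 over the NDUFAF genes. In 0 members did the mimic arrays lie above all NC1 arrays (3.89% of all genes), and in 2 they lay below all of them (4.88%, against 2.54% of all genes). A p that misses the threshold does not show equal levels, and the SE of these differences was 0.07 to 0.18.

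NDUFC1, a small membrane subunit, fell with the mimic. It had 6.26, 6.46 and 6.56 in mimic arrays, against 6.88, 7.01 and 7.19 as lowest, median and highest NC1 level, and 7.05, 7.31 and 7.27 in siRNA arrays. The difference was -0.59 on the log2 scale (SE 0.10, adjusted p = 0.00977, 1.51-fold lower than NC1), and the mimic arrays lay below all 9 others. NDUFC1 was not called without mimic replicate 1 or 2 (adjusted p up to 0.097). It was lower against both control parts, by -0.48 (adjusted p = 0.00977) against NC1 4 to 6 and by -0.71 (adjusted p = 0.000253) against NC1 1 to 3.

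The next largest negative differences with the mimic did not pass the test. NDUFA3 had 9.16, 9.06 and 9.11 in mimic arrays, against 9.14, 9.16 and 9.37 in NC1 4 to 6 and 9.69, 9.93 and 10.13 in NC1 1 to 3 (log2 -0.46 from all NC1, SE 0.18, adjusted p = 0.329). NDUFA3 thus differed by -0.11 from NC1 4 to 6 and by -0.80 from NC1 1 to 3. NDUFB3 had 7.82, 7.68 and 7.90 in mimic arrays and 8.0, 8.10 and 8.36 as lowest, median and highest NC1 level (log2 -0.33, SE 0.09, adjusted p = 0.121), and its mimic arrays lay below all NC1 arrays without a call. The 3 largest positive differences belonged to NDUFA8, NDUFA5 and NDUFB5. NDUFA8 had 8.09, 8.06 and 8.15 in mimic arrays and 7.26, 7.86 and 8.07 in NC1 (log2 0.33, adjusted p = 0.429), and NDUFB5, a membrane subunit, 7.84, 8.21 and 8.04 in mimic arrays and 7.38, 7.71 and 8.07 in NC1 (log2 0.29, adjusted p = 0.442). NDUFA5 had 6.57, 6.84 and 7.04 in mimic arrays and 6.34, 6.51 and 6.69 in NC1 (log2 0.30, adjusted p = 0.304), overlapping in its lowest array.

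The core subunits measured differed from NC1 by -0.13 to 0.12 with the mimic, and their mimic and NC1 arrays overlapped in every case. NDUFV1 had 7.26, 6.92 and 7.19 (log2 -0.11, adjusted p = 0.788), NDUFV2 7.79, 7.74 and 7.96 (-0.13, adjusted p = 0.658) and NDUFS1 7.02, 6.91 and 6.98 (0.02, adjusted p = 0.983) in mimic arrays. In the Q module, NDUFS3 had 7.06, 7.12 and 7.17 (-0.04, adjusted p = 0.911), NDUFS7 5.22, 5.25 and 4.96 (0.12, adjusted p = 0.697) and NDUFS8 6.60, 6.67 and 6.71 (-0.06, adjusted p = 0.827). Members that rose with the siRNA did not pass the test with the mimic. NDUFA2 had 7.82, 7.91 and 7.91 in mimic arrays (log2 -0.06 from NC1, adjusted p = 0.916) and NDUFA12 had 8.35, 8.51 and 8.29 (log2 0.12, adjusted p = 0.663). NDUFAF2 had 7.65, 7.53 and 7.60 (log2 0.00, adjusted p = 0.999), and the other assembly factors lay between -0.08 for NDUFAF3 and 0.21 for NDUFAF7. Both comparisons with NC1 share the control arrays, so their values are given side by side and not correlated.

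The counts with the mimic differed between the control parts. Against NC1 4 to 6, 1 member fell, NDUFC1 (2.44%, against 1.89% of all genes), and 0 rose (1.59% of all genes), with 4 members at an unadjusted p under 0.05. Against NC1 1 to 3, 2 members rose (4.88%, against 6.01% of all genes) and 6 fell (14.6%, against 2.54% of all genes). NDUFA8 (0.58, adjusted p = 0.00593) and NDUFB5 (0.47, adjusted p = 0.0291) rose. NDUFA3 (-0.80, adjusted p = 0.000193), NDUFC1 (-0.71), NDUFB3 (-0.44, adjusted p = 0.00737), NDUFB1 (-0.45, adjusted p = 0.00893), NDUFA1 (-0.30, adjusted p = 0.0385) and NDUFA2 (-0.30, adjusted p = 0.0402) fell. NDUFA1, NDUFA2, NDUFA3 and NDUFB1 of these were also lower in NC1 4 to 6 than in NC1 1 to 3, and NDUFA8 higher. The 2 rises became 3 without NC1 replicate 1 and 1 without NC1 replicate 3 or mimic replicate 2 or 3. The 6 falls, all in subunits, became 4 without NC1 replicate 1, 2, 4 or 5, siRNA replicate 1 or any mimic replicate. They became 5 without siRNA replicate 2. Against NC1 4 to 6, NDUFC1 was not called without mimic replicate 1. Among the assembly factors 0 were called against NC1 1 to 3, and 1 was without NC1 replicate 1.

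Set against SIN3A siRNA directly, the mimic arrays were lower in 10 members (24.4%, against 0.89% of all genes) and higher in 0 (0.679% of all genes), with 28 members at an unadjusted p under 0.05. The mimic arrays lay below all siRNA arrays in 29 members (70.7%, against 13.1% of all genes) and above all of them in 2 (4.88%, against 13.3% of all genes). The median over the subunits was -0.38. By module, 4 of 10 members of the N module, 0 of 5 of the Q module, 2 of 7 and 3 of 12 of the membrane arm, and 1 of 7 assembly factors were lower.

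The largest of these differences was in NDUFA3 (-1.04, SE 0.21, adjusted p = 0.0269), which had 9.06 to 9.16 in mimic and 10.13 to 10.17 in siRNA arrays. NDUFA2 (-0.92, SE 0.15, adjusted p = 0.00717), NDUFC1 (-0.78, SE 0.11, adjusted p = 0.00479) and NDUFB3 (-0.70, SE 0.11, adjusted p = 0.00564) followed. In NDUFC1 the mimic was the group away from NC1, in NDUFA2 the siRNA was, and in NDUFB3 both were, in opposite directions and for the mimic without a call. NDUFA6, an accessory subunit that works with the acyl carrier protein, was lower by -0.51 (adjusted p = 0.0269), with 7.17, 7.04 and 7.32 in mimic and 7.77, 7.61 and 7.68 in siRNA arrays. NDUFB10 (-0.54, adjusted p = 0.0291), NDUFB1 (-0.64, adjusted p = 0.0291), NDUFA12 (-0.44, adjusted p = 0.0301), NDUFAF2 (-0.61, adjusted p = 0.0411) and NDUFS6 (-0.40, adjusted p = 0.0455) complete the 10. NDUFB3 and NDUFC1 stayed called whichever array was left out. The 9 subunits became 4, 3 and 2 without siRNA replicate 1, 2 and 3, 3, 3 and 4 without mimic replicate 1, 2 and 3, and 16 without NC1 replicate 3. The assembly factor was lost without any of these treated arrays and joined by 1 more without NC1 replicate 3.

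The direct comparison takes no account of the NC1 parts, and the labels do not say which control arrays belong with which treatment. The mimic effect against NC1 4 to 6 was also set against the siRNA effect against NC1 1 to 3 in a single limma fit, a pairing inferred from the values. All 10 calls were then lost, at adjusted p-values of 0.053 to 0.39, with differences of -0.55 for NDUFC1, -0.51 for NDUFA12, -0.49 for NDUFB3, -0.48 for NDUFA6, -0.45 for NDUFA2, -0.39 for NDUFB10, -0.37 for NDUFAF2, -0.35 for NDUFA3, -0.30 for NDUFB1 and -0.28 for NDUFS6. The SE of this comparison is larger, 0.15 as a median over the members against 0.12 in the direct one. NDUFB6 was the member called (2.44%, against 1.19% of all genes lower), at -0.91 (SE 0.22, adjusted p = 0.0462), and 19 members had an unadjusted p under 0.05. The median over the subunits was -0.30. The 10 calls of the direct comparison thus did not hold in this one. Its larger SE and its use of the NC1 parts both differ from the direct comparison, and the part of each was not tested.

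**Figure D4:**
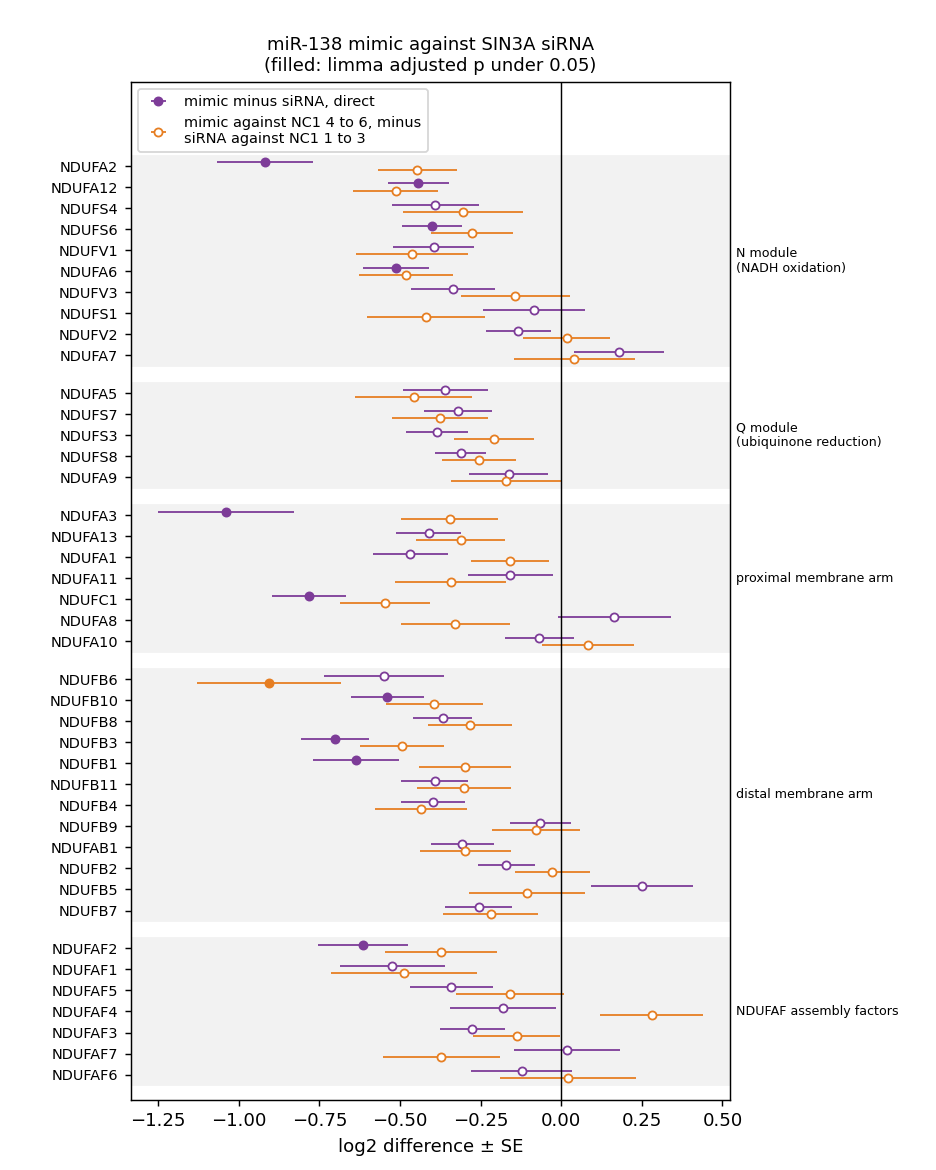
Log2 difference (horizontal axis, point ± SE) between miR-138 mimic and SIN3A siRNA for each of the 41 NDUF genes (rows, by module), taken directly (purple) and as the mimic effect against NC1 4 to 6 minus the siRNA effect against NC1 1 to 3 (orange). Filled points passed a limma adjusted p under 0.05, 10 in the direct comparison and 1, NDUFB6 at -0.91, in the other. Most points of both kinds lie left of 0, with medians over the subunits of -0.38 and -0.30.

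Other genes of the respiratory chain were counted in the same fit. With SIN3A siRNA, 2.35% of all genes rose and 1.66% fell against all NC1 arrays. These shares were 3.66% and 2.04% against NC1 1 to 3, and 5.16% and 6.28% against NC1 4 to 6. Of 12 complex I assembly factors without an NDUF symbol, 1 rose with SIN3A siRNA, TMEM70 (0.37, SE 0.07, adjusted p = 0.0128), an inner membrane protein best known for ATP synthase assembly, with 5.54 to 5.59 in siRNA and 5.08 to 5.32 in NC1 arrays. None of these 12 fell against all NC1 arrays, and their median was 0.10. Their median against NC1 4 to 6 was -0.03, and TMEM126B, an inner membrane protein of complex I assembly, fell there (-0.37, adjusted p = 0.0275) while TMEM70 and TMEM186 rose. Against NC1 1 to 3, 2 rose (TMEM70 and TMEM126A) and 0 fell. Of 32 measured nuclear subunits of complexes III and IV and ATP synthase, 4 rose and 0 fell against all NC1 arrays, with 16 at an unadjusted p under 0.05 and a median of 0.18. They were COX5B (0.55, adjusted p = 0.00347) and COX6C (0.34, adjusted p = 0.0135) of complex IV and ATP5MF (0.50, adjusted p = 0.0146) and ATP5F1D (0.29, adjusted p = 0.0292) of ATP synthase. Against NC1 1 to 3, 7 of the 32 rose and 0 fell, and against NC1 4 to 6, 12 rose and 1 fell, the ATP synthase subunit ATP5F1A (-0.30, adjusted p = 0.0411). None of 3 measured complex II genes was called against all NC1 arrays or either part (2 at an unadjusted p under 0.05 and a median of -0.07 against all). With the mimic, 0 genes of these lists were called by limma against all NC1 arrays (4 of the 32 at an unadjusted p under 0.05) or against NC1 4 to 6 (1 of the 32). Of all genes, 0.641% rose and 0.402% fell against all NC1 arrays, and 1.59% and 1.89% against NC1 4 to 6. Against NC1 1 to 3, 4 of the 32 rose and 4 fell with the mimic (6.01% and 2.54% of all genes). ATP5PB (0.98, adjusted p = 2.83e-05) and ATP5ME (-0.58, adjusted p = 0.00118) had the smallest adjusted p-values, and both also differed between the NC1 parts, in the same directions (0.95 and -0.47). Against SIN3A siRNA the mimic was lower in 6 of the 32 (0.89% of all genes). Of these 6, ATP5MF (-0.79), COX5B (-0.61), COX6C (-0.48) and ATP5ME (-0.76) had the smallest adjusted p-values (0.00534 to 0.0277). With each treatment set against the NC1 part paired with it, 1 of the 32 was called, ATP5PB (-0.85, adjusted p = 0.0057). Of the 12 other assembly factors, 1 was called there, COA1 (-0.63, adjusted p = 0.0364), and 1.19% of all genes were lower. COA1 was also higher in NC1 4 to 6 than in NC1 1 to 3 (0.35, adjusted p = 0.0429).

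Transcripts of the regulators of mitochondrial biogenesis did not pass the test against all NC1 arrays. Of 12 such genes, 0 were called by limma with SIN3A siRNA, 2 had an unadjusted p under 0.05, and their median was -0.12. NRF1 was at -0.05 (adjusted p = 0.837), GABPA, the DNA-binding part of GABP, at -0.18 (adjusted p = 0.709), YY1 at -0.13 (adjusted p = 0.495), TFAM, which packages mitochondrial DNA, at -0.28 (adjusted p = 0.283), and PPARGC1A, the coactivator of the programme, at -0.04 (adjusted p = 0.932). With the mimic 0 of the 12 were called against all NC1 arrays and 0 had an unadjusted p under 0.05. Against single control parts some were called, and the shares of all genes called there are given above. With SIN3A siRNA, TFB2M, a mitochondrial transcription factor, was lower than in NC1 1 to 3 (-0.37, adjusted p = 0.0496). Against NC1 4 to 6, TFB1M, which methylates mitochondrial ribosomal RNA, was lower (-0.62, adjusted p = 0.0105) and the coactivator PPRC1 higher (0.39, adjusted p = 0.016). With the mimic, TFB1M was higher (0.83, adjusted p = 0.00194) and TFB2M lower (-0.48, adjusted p = 0.00917) than in NC1 1 to 3, and 0 were called against NC1 4 to 6 (1 at an unadjusted p under 0.05). TFB1M was also higher (1.02) and TFB2M lower (-0.46) in NC1 4 to 6 than in NC1 1 to 3. NDUFA4 and NDUFA4L2, now listed as COXFA4 and COXFA4L2 and outside the rule by symbol, were at 0.18 and -0.03 with SIN3A siRNA and at 0.07 and -0.05 with the mimic, with no call. NDUFA4 is known to belong to complex IV in spite of its first name.

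A second probe set with a single symbol existed for 4 members. For NDUFAF2 it differed from NC1 by 0.64 with SIN3A siRNA and 0.07 with the mimic, next to 0.61 and 0.00 for the one used. The mean of this second NDUFAF2 probe set was 7.16 in siRNA and 6.52 in NC1 arrays, next to 8.21 and 7.59. For NDUFB4 its group means and NC1 spread were identical to those of the one used, so it is no second measurement. For NDUFV2 it gave 0.05 and -0.12, next to 0.00 and -0.13. For NDUFS4 it gave -0.09 with SIN3A siRNA, at a mean level of 3.97 in siRNA and 4.07 in NC1 arrays, where the brighter probe set gave 0.44. Complex I genes have many processed pseudogenes, and whether a probe set reads such a near-identical copy was not tested. Probe set numbers of the members run by chromosome, with NDUFAF2 and NDUFV2 out of place. NDUFAF2 lies on chromosome 5, but the number used (8050591) falls among those of chromosome 2, unlike its second (8105499). NDUFV2 lies on chromosome 18, but the number used (8039068) falls after those of chromosome 19, and its second (8020058) before them. Levels given for both genes may therefore belong to another locus.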

How the data were processed

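RNA levels of Calu-3 cells were measured on 12 arrays (3 SIN3A siRNA, 3 miR-138 mimic, 6 NC1). The deposited values are log2 levels per probe set, and the submitters' processing notes name RMA and Partek 6.3 but not the role of either. They lay between 1.43 and 13.2 and were taken as deposited. Background correction and summary of probes stand as the authors left them, since no scanner files were used here.

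Of 33297 probe sets, 19460 carried 1 gene symbol, 1754 several and 12083 none. Matching of the annotation to RefSeq by gene ID succeeded for 19429 and changed 0 symbols. The probe set with the highest mean over the 12 arrays stood for each of 18417 genes, 769 of which had more than 1. The members and the gene lists were chosen with earlier results of these data known.

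In limma 3.58.1 (R 4.3.3) all arrays were fitted as 3 groups (9 residual degrees of freedom), and for contrasts with NC1 1 to 3 or NC1 4 to 6 as 4 groups (8 residual degrees of freedom). That the NC1 parts differ, and the pairing of NC1 1 to 3 with SIN3A siRNA and of NC1 4 to 6 with the mimic, come from earlier work on the values and not from the labels. Adjusted p-values are Benjamini-Hochberg over all 18417 genes, a gene was called under 0.05, and a member's SE is that of the fit. The fit of 3 groups was run on simulated data, where 72 of 100 siRNA changes of 0.5 and 99 of 100 of 1 were recovered. The simulated NC1 arrays held no split into parts, so this says nothing of the fit under the split seen here. No set test was run, and lists are described by counts and medians.

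Array values are given, by rule, for up to 8 members called per contrast with NC1 and direction, for the 3 largest rises and falls in each, and for the nuclear core subunits. In places a group is given as a range or as its lowest, median and highest level. In other contrasts and lists, called genes are named up to a fixed number. The array values of NDUFB6, and the siRNA values and NC1 range of NDUFS4, were added after they were seen. Alternatives were quantile normalization of the values again, centring of arrays, genes with a mean under 5 left out, the mean of all probe sets of a gene, a variance prior with trend, NC1 parts as groups, the array set or the replicate number as a block, and leaving out each array.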

Additional observations from a re-analysis of the deposited data

Results flagged for a closer look

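Among the 6 NC1 arrays, 1 array stood far from the others in 4 of the 41 members tested, and chance marks about 1 in 20. NDUFS1, a core subunit of the N module, had 6.43 in NC1 replicate 3, with the nearest NC1 array at 6.94. NDUFB11, a membrane subunit, had 7.55 in NC1 replicate 4, with the nearest at 7.82. NDUFB7 had 6.96 in NC1 replicate 2, with the nearest at 6.78. NDUFAF6, a dim assembly factor, had 3.91 in NC1 replicate 6, with the nearest at 4.16. None of the 4 genes was called with SIN3A siRNA or the mimic against all NC1 arrays.

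NDUFB6, a subunit of the far membrane arm, differed between the treatments when each was set against the NC1 part paired with it. The mimic effect against NC1 4 to 6 minus the siRNA effect against NC1 1 to 3 was -0.91 (SE 0.22, limma adjusted p = 0.0462). The direct difference between mimic and siRNA was -0.55 (SE 0.19, adjusted p = 0.173). NDUFB6 had 6.95, 6.79 and 6.68 in mimic arrays, 7.32, 7.38 and 7.37 in siRNA arrays, and 7.15, 7.15 and 6.74 in NC1 4 to 6. NC1 replicate 3 had the lowest NDUFB6 level of the 12 arrays, 6.21, against 6.94 and 6.81 in NC1 replicates 1 and 2, and its part in the difference was not tested.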

How the results depend on the processing

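No called value turned its direction in the settings run, and the median of all genes moved by under 0.1 in each. With NC1 parts as groups, 16 subunits, 3 NDUFAF genes and 1578 genes in all were called with SIN3A siRNA, 3 subunits (lower) and 819 genes with the mimic, and 16 subunits (lower) and 1078 genes for mimic minus siRNA. With the array set as a block, 642 genes were called with the mimic, and 1 subunit (lower) and 0 NDUFAF genes for mimic minus siRNA. Each set held a treatment and the control part paired with it, a pairing inferred from the values. This block therefore repeats the results given above against the paired parts and is no separate check. In it, the siRNA calls of NDUFB3 (adjusted p = 0.113), NDUFS3 (0.108) and NDUFS6 (0.082) ended. Quantile normalization again ended the same 3 (0.147, 0.163 and 0.0968), and for mimic minus siRNA it ended NDUFB1 (0.059) and NDUFS6 (0.0576), the second of which a variance prior with trend also ended (0.0509). For mimic minus siRNA, leaving out dim genes gave 15 lower subunits, and centring arrays on their median gave 0 NDUFAF genes (NDUFAF2, 0.0556). Centring also ended the call of SIN3A with the mimic (adjusted p = 0.0512). Quantile normalization again gave 5 higher subunits for siRNA against NC1 1 to 3, 1 higher and 10 lower for the mimic against NC1 1 to 3, and 8 lower for NC1 4 to 6 against NC1 1 to 3. The replicate numbers did not pair the arrays, since deviations of arrays of the same number correlated at -0.08 to 0.05. NC1 replicates 4 to 6 share their number with no treated array. The replicate block therefore left NC1 1 to 3 as the control for both treatments, and its changes cannot be credited to pairing. With the replicate block, 7 subunits, 0 NDUFAF genes and 708 genes were called with SIN3A siRNA, 2 higher and 4 lower subunits and 1281 genes with the mimic, and 14 lower subunits and 830 genes for mimic minus siRNA. That block ended the siRNA calls of NDUFB3 (0.214), NDUFS3 (0.192), NDUFS6 (0.145), NDUFB10 (0.0616) and NDUFAF2 (0.0701).

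Leaving out each array in turn gave 3 to 13 higher subunits, 0 to 3 NDUFAF genes and 165 to 1033 genes with SIN3A siRNA, 0 to 1 lower subunit and 39 to 264 genes with the mimic, and 2 to 16 lower subunits, 0 to 2 NDUFAF genes and 58 to 568 genes for mimic minus siRNA. By control part it gave 4 to 9 higher subunits for siRNA against NC1 1 to 3 and 12 to 17 against NC1 4 to 6. For the mimic it gave 1 to 3 higher and 4 to 6 lower subunits against NC1 1 to 3 and 0 to 1 lower against NC1 4 to 6. For NC1 4 to 6 against NC1 1 to 3 it gave 0 to 2 higher and 2 to 4 lower subunits. The cause of these changes was not tested.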
